A study of Mus musculus with 12 samples.

Results

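Fatty acid oxidation and its regulation by PPAR-alpha were followed through 30 genes in mouse livers with and without interleukin-18, an inflammatory cytokine. The genes were chosen by their known function: the receptor Ppara and the liver factor Creb3l3, secreted or signalling targets, the carnitine shuttle, the mitochondrial acyl-CoA dehydrogenases with their electron acceptors, the later steps of the mitochondrial spiral, and the peroxisomal pathway. The choice was made with earlier results of these data known, so the shares below do not come from a list blind to the data. All 30 were among the 22130 genes whose probes could be tested, and 36 of the 55681 probes on the arrays carried their names (Eci1 stands in the files under the older name Dci). Whole livers came from untreated BALB/c mice aged 6 or 12 weeks, and total RNA was hybridised to Agilent 1-colour arrays. The 4 groups were the wild type at 6 weeks, the interleukin-18 knockout at 6 weeks, the wild type at 12 weeks and the knockout at 12 weeks, with 3 arrays each, which the labels call biological replicates. The sources used here do not give the deleted part of Il18, the sex, the feeding state, the hour of killing, or whether livers were pooled.

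PPAR-alpha is a nuclear receptor that binds fatty acids, pairs with a retinoid X receptor and switches on genes for fatty acid uptake, oxidation and ketone body production when the liver meets a fast. Mitochondrial oxidation begins with activation to an acyl-CoA and entry through the carnitine shuttle, after which each turn of the spiral uses a dehydrogenase, a hydratase, a second dehydrogenase and a thiolase. Very long and branched chains are shortened in peroxisomes first. Many of these genes also follow feeding and the liver clock over the day.

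The levels below are log2 values of the processed signal relative to each array's 75th percentile of signal, so a value of 0 is the level of that percentile and a difference of 1 is a 2-fold difference. Il18, the targeted gene, averaged 2.40 ± 0.05 (SD, n = 3) in wild type and -0.14 ± 0.19 in knockout livers at 6 weeks, and of 2.30 ± 0.18 and -0.04 ± 0.08 at 12 weeks. Its probe stayed above background in the knockout. The 7 hepatocyte markers were present on the arrays, with summed linear levels of 4303 to 4446 in the 6-week wild type, 3945 to 4611 in the 6-week knockout, 3987 to 4344 in the 12-week wild type and 3670 to 3971 in the 12-week knockout. Among markers of other cells, the 4 measured erythroid genes summed to 64.3 to 78.4, 115 to 181, 73.7 to 105 and 118 to 167 in the same order of groups, higher in the knockout at both ages. The 7 lymphocyte genes summed to 64.9 to 66.7, 45.5 to 61.5, 61.3 to 101 and 36.7 to 47.4, and the 4 adipocyte genes to 0.143 to 0.541, 0.178 to 0.856, 0.172 to 0.309 and 1.05 to 1.57, with Plin1 and Lep above background on no array. The 6 Kupffer cell genes summed to 112 to 128, 126 to 139, 144 to 191 and 97.5 to 160, without overlap between the ages in the wild type. None of the 6 was called in any comparison, though all 6 lay below 0 for the knockout at 12 weeks and above 0 for the wild type with age (3 at an unadjusted p under 0.05 in each, limma). The 4 biliary genes summed to 0.543 to 0.570, 0.737 to 1.04, 0.639 to 1.05 and 0.653 to 0.729, lowest in the 6-week wild type, and of the 3 tested Sox9 was higher in the knockout at 6 weeks (1.81 ± 0.28, adjusted p = 0.00223) and rose with age in the wild type (1.48 ± 0.28, adjusted p = 0.0108). No other biliary gene was called in these 2 comparisons. At 6 weeks 2 of the 3 lay below 0, and with age in the wild type 1 of the 3 did. In whole liver, fewer cells of a type and less RNA per cell cannot be told apart, and the part of these markers in the results below was not tested. The arrays lay on 2 slides: slide 1 held the 6-week wild type and replicate 1 of the 12-week wild type, and slide 2 held the rest. At 6 weeks slide and genotype therefore cannot be told apart, while the age comparison of the knockout lay wholly on slide 2.

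The upstream sequence of 5 genes is shown, Ppara and Pdk4 because the results turn on them and the others because they are textbook PPAR-alpha targets that held the letters searched for. Each run is the 250 bases before the transcription start in the gene's own direction, from RefSeq on GRCm38.p6. Capitals mark the hexamer AGGTCA, the core that nuclear receptors read, and AGGNCANAGGNCA, a relaxed form of its repeat with 1 base between, on either strand, so that TGACCT is the hexamer on the opposite strand. Sequences run 5′ to 3′. Ppara lies at chr15:85735526-85735775 (plus strand), Pdk4 at chr6:5496279-5496528 (minus strand), Acadm at chr3:153944644-153944893 (minus strand), Cpt1a at chr19:3323051-3323300 (plus strand) and Fabp1 at chr6:71199629-71199878 (plus strand).
Ppara: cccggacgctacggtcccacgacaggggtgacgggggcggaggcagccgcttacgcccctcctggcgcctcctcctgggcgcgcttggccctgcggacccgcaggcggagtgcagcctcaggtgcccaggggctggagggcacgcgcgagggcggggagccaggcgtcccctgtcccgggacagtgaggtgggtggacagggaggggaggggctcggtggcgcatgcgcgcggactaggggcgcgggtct
Pdk4: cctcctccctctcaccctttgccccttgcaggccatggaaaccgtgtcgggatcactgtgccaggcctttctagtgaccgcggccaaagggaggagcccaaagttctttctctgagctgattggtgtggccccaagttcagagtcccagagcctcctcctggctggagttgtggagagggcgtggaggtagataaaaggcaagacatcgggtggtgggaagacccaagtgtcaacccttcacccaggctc
Acadm: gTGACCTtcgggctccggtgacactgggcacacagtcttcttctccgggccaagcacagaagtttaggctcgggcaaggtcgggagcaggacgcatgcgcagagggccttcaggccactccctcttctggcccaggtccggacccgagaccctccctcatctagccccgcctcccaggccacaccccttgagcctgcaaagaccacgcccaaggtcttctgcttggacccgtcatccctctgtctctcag
Cpt1a: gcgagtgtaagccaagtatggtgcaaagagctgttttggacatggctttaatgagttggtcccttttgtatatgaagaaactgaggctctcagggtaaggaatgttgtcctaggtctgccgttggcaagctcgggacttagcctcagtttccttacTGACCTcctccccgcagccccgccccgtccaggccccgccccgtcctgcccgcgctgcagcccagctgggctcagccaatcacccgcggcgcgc
Fabp1: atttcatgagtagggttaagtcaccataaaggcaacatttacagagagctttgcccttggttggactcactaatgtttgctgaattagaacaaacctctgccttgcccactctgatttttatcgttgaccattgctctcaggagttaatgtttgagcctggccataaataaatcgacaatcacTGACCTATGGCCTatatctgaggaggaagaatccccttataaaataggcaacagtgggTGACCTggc
The Fabp1 window held the relaxed repeat 67 to 55 bases before the start, overlapping a hexamer at 67 to 62 bases, and another hexamer at 9 to 4 bases. Acadm had the hexamer 249 to 244 bases and Cpt1a 94 to 89 bases before the start, all of these on the opposite strand to the gene, while Ppara and Pdk4 had no match to these letters in the window. The table held 27 windows for 25 of the 30 genes. Of these windows 5 held the hexamer, in Acadm, Fabp1, Creb3l3, Acadvl and Cpt1a, against 14.0% of all 32851 windows of that length. The relaxed repeat occurred in 1 of the 27, against 0.338% of all windows, and the strict repeat AGGTCANAGGTCA in none, against 0.0335%. A match is only a run of letters, and binding was not measured here.

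**Figure D1:**
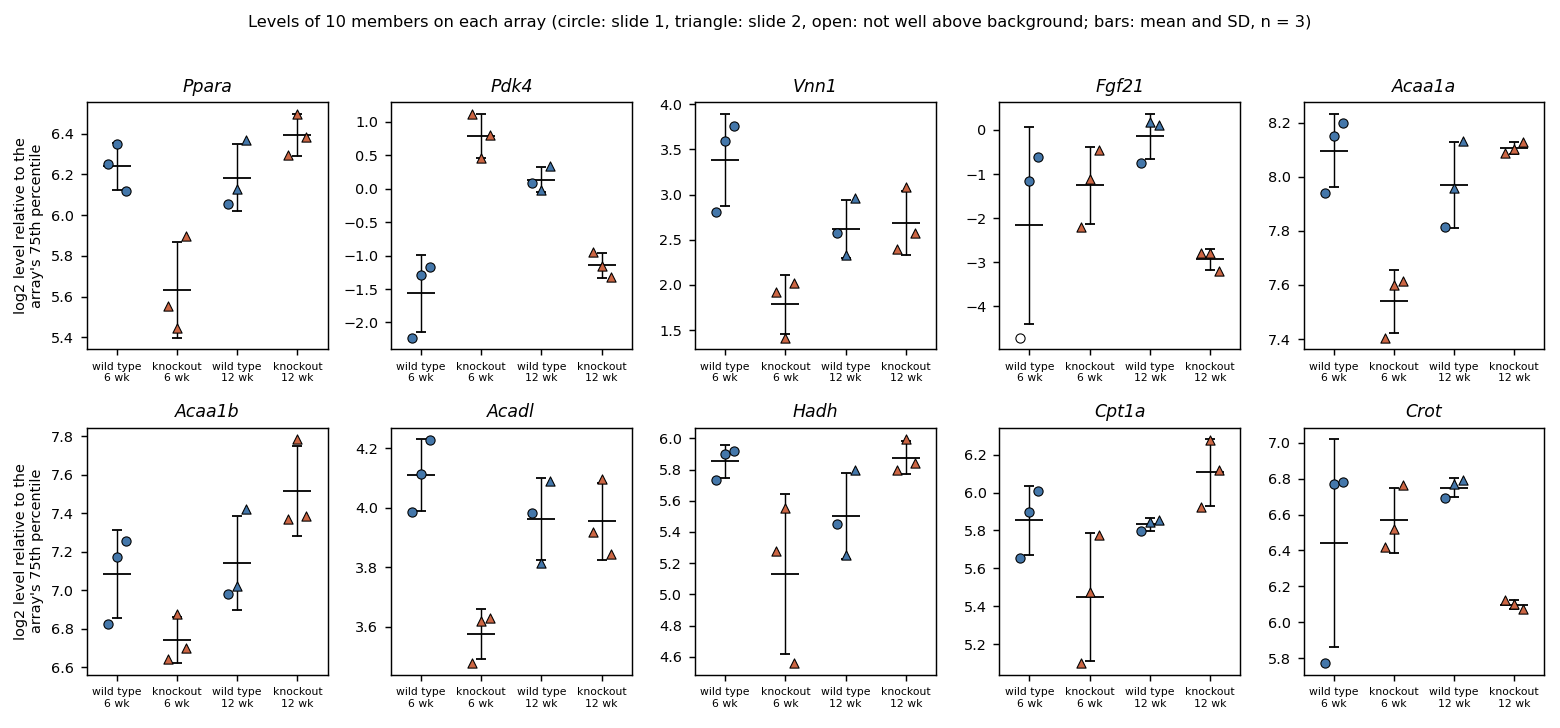
Log2 levels of 10 genes on each of the 12 arrays, relative to the array's 75th percentile, by genotype and age; circles are arrays of slide 1, triangles of slide 2, the open point was not well above background, and bars give the mean and SD of 3 arrays. Pdk4 ran from -2.23 to -1.17 in the 6-week wild type and from 0.46 to 1.12 in the 6-week knockout, while Ppara, Vnn1, Acaa1a and Acadl were lowest in the 6-week knockout.

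At 6 weeks the knockout liver had less Ppara mRNA than the wild type, less of 4 genes of the pathway (Vnn1, Acaa1a, Acadl and Hadh) and more Pdk4. These 6 of 30 genes, 1 higher and 5 lower, were 20% of the pathway, beside 21.1% of all genes tested (11.7% higher and 9.35% lower). In this fit, which has no term for the slide, the share was near that of the arrays as a whole. The median log2 difference over the 30 genes was -0.04, against 0.02 over all genes. The test was limma's moderated test with Benjamini-Hochberg adjustment over the 22130 genes, at a threshold of 0.05. With the slide as a random block 4 of the 30 genes passed, beside 5.54% of all genes tested. With the slide as a fixed block 1 of 30 passed beside 2.66%, and without a filter on dim probes 5 of 30 beside 8.92%.

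Ppara encodes the receptor itself. Its log2 levels on replicates 1, 2 and 3 were 6.25, 6.35 and 6.12 in the 6-week wild type and 5.55, 5.45 and 5.90 in the 6-week knockout, so the highest knockout reading was under the lowest wild type reading. The difference was -0.61 ± 0.13 (SE; 1.52-fold lower; adjusted p = 0.0109, limma). The arrays carried 3 Ppara probes, placed by the files on mm9 at chr15:85632110-85632169, chr15:85632534-85632593 and chr15:85637193-85637252, and in a fit of every probe they gave -0.61 ± 0.13, -0.66 ± 0.13 and -0.71 ± 0.15 (adjusted p = 0.0118, 0.00784 and 0.0105). All 3 probes thus passed on their own. The other regulator, Creb3l3, an endoplasmic reticulum-bound transcription factor of hepatocytes that works beside PPAR-alpha, was higher on every knockout array, at 7.52 to 7.64 against 7.11 to 7.47, but its difference of 0.25 ± 0.12 did not pass (adjusted p = 0.144).

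Among the secreted and signalling targets, 1 rose and 1 fell. Pdk4, a kinase that shuts pyruvate dehydrogenase and so spares glucose when fat is burned, stood at -2.23, -1.30 and -1.17 in the wild type and at 1.12, 0.46 and 0.80 in the knockout. It was 5.12-fold higher in the knockout (log2 difference 2.36 ± 0.27, adjusted p = 0.000426), the widest difference among the 30 genes and opposite in sign to that of Ppara. Vnn1, a pantetheinase that releases pantothenate and cysteamine, was at 2.81, 3.59 and 3.76 in the wild type and at 1.92, 1.41 and 2.03 in the knockout. No array of the groups overlapped, and the gene was 3.04-fold lower (-1.60 ± 0.28, adjusted p = 0.0046). Fabp1, the cytosolic fatty acid carrier of hepatocytes, was also lower on every knockout array, at 9.49 to 9.60 against 9.78 to 9.91, and its difference of -0.30 ± 0.11 did not pass (adjusted p = 0.0765). Fgf21, the fasting hormone of the liver, spread from -4.72, a value not well above background, to -0.61 in the wild type and from -2.19 to -0.45 in the knockout. With that spread its difference of 0.91 ± 0.89 had a 95% interval from -1.07 to 2.89, and without that array (replicate 1) the difference turned to -0.37 ± 0.47.

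No gene of the carnitine shuttle passed at 6 weeks (0 of 6 by limma, 1 of 6 at an unadjusted p under 0.05). Cpt1a, which makes the acylcarnitines that enter the mitochondrion and is held to set the pace of oxidation, was at 5.65, 5.90 and 6.01 in the wild type and at 5.10, 5.48 and 5.77 in the knockout. These ranges overlapped, and the difference was -0.40 ± 0.16 (adjusted p = 0.101). Acsl1, the main acyl-CoA synthetase of the liver, differed by -0.01 ± 0.10, with a 95% interval from -0.24 to 0.22. Over the group the differences ran from -0.40 (Cpt1a) to 0.16 (Crat, the acetyltransferase of the shuttle).

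Of the 6 dehydrogenase and electron transfer genes, Acadl fell. This long-chain acyl-CoA dehydrogenase was at 3.99, 4.11 and 4.23 in the wild type and at 3.48, 3.62 and 3.63 in the knockout, without overlap (-0.54 ± 0.10; 1.45-fold lower; adjusted p = 0.00683). Acadm, the medium-chain enzyme, was at 6.77, 6.81 and 6.96 against 6.44, 6.52 and 6.58, also without overlap, but missed the threshold (-0.34 ± 0.11, adjusted p = 0.0571). Acads, Acadvl, Etfb and Etfdh, which serve short chains, very long chains and the passage of electrons to ubiquinone, did not pass, and Etfdh had the highest difference of the group at 0.20.

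In the later steps of the spiral, Hadh, the dehydrogenase of shorter hydroxyacyl-CoAs, was at 5.73, 5.90 and 5.92 in the wild type and at 5.28, 5.55 and 4.56 in the knockout. It was lower on every knockout array, with replicate 3 well under the rest of its group (-0.72 ± 0.22, adjusted p = 0.0455). Hadha and Hadhb, the chains of the trifunctional protein that handles long chains, differed by 0.18 ± 0.10 and -0.11 ± 0.11, and neither passed. In the peroxisome, Acaa1a, a 3-ketoacyl-CoA thiolase, was at 7.94, 8.15 and 8.20 in the wild type and at 7.40, 7.60 and 7.62 in the knockout (-0.56 ± 0.10; 1.47-fold lower; adjusted p = 0.00575). Its close relative Acaa1b was at 6.82, 7.17 and 7.26 against 6.65, 6.88 and 6.70, where the ranges overlapped, and its difference of -0.34 ± 0.16 did not pass (adjusted p = 0.156). The coding sequences of this pair are much alike, so how far each probe read the other gene is uncertain.

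Arrays of the 2 genotypes did not overlap for 10 of the 30 genes at 6 weeks, 2 higher (Pdk4 and Creb3l3) and 8 lower (Vnn1, Hadh, Ppara, Acaa1a, Acadl, Acadm, Fabp1 and Slc25a20), or 33.3% beside 47.9% of all genes tested. Of the 24 genes that did not pass, 23 had a 95% interval within 2-fold in either direction and 19 within 1.5-fold, Fgf21 being the exception to the wider bound. With the slide as a fixed block, for which replicate 1 of the 12-week wild type is the link between the slides, Acaa1a still passed (-0.79, adjusted p = 0.0452) and the other 5 did not: Pdk4 2.28 (0.0519), Ppara -0.80 (0.108), Vnn1 -1.67 (0.14), Acadl -0.51 (0.199) and Hadh -0.79 (0.362). With the slide as a random block Acadl (-0.52, adjusted p = 0.0577) and Hadh (-0.75, adjusted p = 0.194) were lost, and Hadh also missed the threshold without any 1 of 8 arrays, at -0.43 (adjusted p = 0.0969) without replicate 3 of the 6-week knockout and at -0.69 to -0.79 (adjusted p = 0.0604 to 0.113) without replicate 1, 2 or 3 of the 6-week wild type, replicate 1 of the 6-week knockout, or replicate 1, 2 or 3 of the 12-week knockout.

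**Figure D2:**
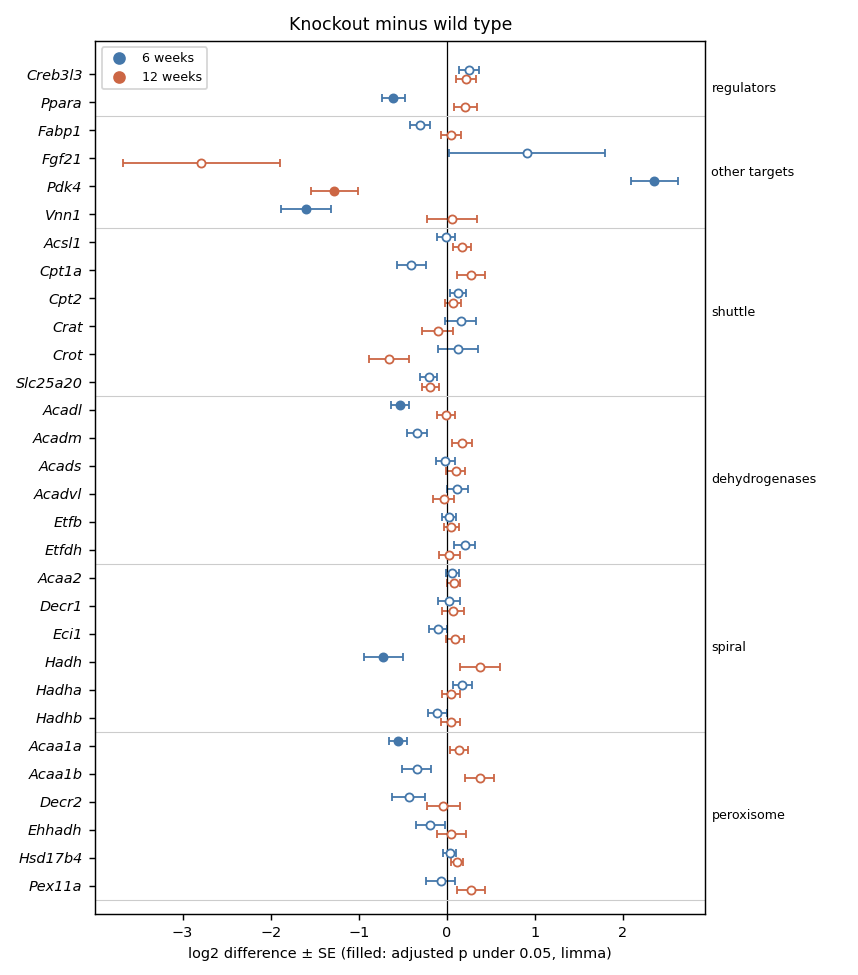
Log2 difference of the knockout from the wild type, with its SE, for the 30 genes grouped by role, at 6 weeks and at 12 weeks; filled points had an adjusted p under 0.05 by limma. At 6 weeks 6 points are filled, and at 12 weeks only that of Pdk4 is, at -1.28.

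At 12 weeks the genotypes differed in 1 of the 30 genes, Pdk4, which was now lower in the knockout. That is 3.33% of the pathway, beside 8.21% of all genes tested (5.65% higher and 2.56% lower). The median difference over the 30 genes was 0.07, against 0.01 over all genes. Ppara was at 6.06, 6.13 and 6.37 in the wild type and at 6.30, 6.50 and 6.38 in the knockout, ranges that overlapped, and its difference of 0.21 ± 0.13 had a 95% interval from -0.08 to 0.50.

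Pdk4 stood at 0.08, -0.02 and 0.34 in the 12-week wild type and at -0.95, -1.15 and -1.32 in the 12-week knockout. The groups did not overlap, and the difference was -1.28 ± 0.27 (2.42-fold lower, adjusted p = 0.0193, limma). Within slide 2 it was -1.30 (adjusted p = 0.0317). The call was lost without replicate 2 of the 12-week knockout (-1.27, adjusted p = 0.0556) and without its replicate 3 (-1.19, adjusted p = 0.0727), fits in which none of the 30 genes passed (3 and 4 at an unadjusted p under 0.05).

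Fgf21 and Crot, singled out after their values were seen, also had no overlap at 12 weeks but missed the threshold in the fit of all 12 arrays. Fgf21 was at -0.74, 0.19 and 0.12 in the wild type and at -2.79, -2.80 and -3.21 in the knockout, a difference of -2.79 ± 0.89 (adjusted p = 0.0827). Crot, the peroxisomal octanoyltransferase that passes shortened chains on to carnitine, was at 6.69, 6.77 and 6.79 in the wild type and at 6.12, 6.10 and 6.07 in the knockout (-0.65 ± 0.23, adjusted p = 0.107). In each gene the 3 knockout arrays lay close together and below the wild type. Replicate 1 of the 6-week wild type read -4.72 for Fgf21 and 5.77 for Crot, under the rest of its group (-1.17 and -0.61, and 6.77 and 6.78). Without that array the same 12-week differences passed (adjusted p = 0.0075 and 0.00667), which brought the count to 3 of 30. Within slide 2 the differences were -3.09 (adjusted p = 0.0244) and -0.68 (adjusted p = 0.0306).

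Vnn1, which was lower in the knockout at 6 weeks, was at 2.57, 2.33 and 2.96 in the 12-week wild type and at 2.39, 3.08 and 2.58 in the knockout, with wide overlap (0.06 ± 0.28). The levels of Acadl were 3.98, 3.81 and 4.09 against 3.92, 4.10 and 3.84, and those of Acaa1a 7.82, 7.96 and 8.13 against 8.09, 8.10 and 8.13. Neither passed, with differences of -0.01 ± 0.10 and 0.14 ± 0.10. Hadh was at 5.45, 5.25 and 5.80 in the wild type and at 5.79, 6.00 and 5.84 in the knockout (0.38 ± 0.22, adjusted p = 0.333). Acaa1b was at 6.98, 7.02 and 7.42 against 7.37, 7.79 and 7.39 (0.37 ± 0.16, adjusted p = 0.189), and Cpt1a at 5.79, 5.85 and 5.86 against 5.92, 6.27 and 6.12 (0.27 ± 0.16, adjusted p = 0.333). For Cpt1a the knockout arrays lay above all wild type arrays, as they did for Creb3l3 (0.22 ± 0.12). In all, 5 genes had no overlap (2 higher, 3 lower), or 16.7% beside 27.4% of all genes, and 27 of the 29 genes that did not pass had a 95% interval within 2-fold, Fgf21 and Crot being the exceptions.

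Between 6 and 12 weeks the wild type changed in 1 of the 30 genes, again Pdk4, 3.33% of the pathway beside 9.04% of all genes tested (4.61% higher and 4.43% lower). Pdk4 went from a mean of -1.57 ± 0.58 (SD, n = 3) to 0.13 ± 0.19, a rise of 1.70 ± 0.27 (SE; 3.25-fold; adjusted p = 0.00529, limma). Ppara was at 6.24 ± 0.12 and 6.18 ± 0.16 at the 2 ages and differed by -0.06 ± 0.13. The arrays of the ages did not overlap for Pdk4 and Crat, 6.67% of the genes beside 26% of all. Vnn1 (-0.77 ± 0.28, adjusted p = 0.122) and Fgf21 (2.02 ± 0.89, adjusted p = 0.187) were the genes that did not pass and whose 95% intervals reached beyond 2-fold. Without replicate 1 of the 6-week wild type, the array not well above background for Fgf21, its difference was 0.74 ± 0.47 (adjusted p = 0.393). With the slide as a fixed block Pdk4 was at 1.65 (adjusted p = 0.0598), and no gene of the 30 passed (2 at an unadjusted p under 0.05). Without replicate 1 of the 6-week or of the 12-week wild type the count was 2 of 30.

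**Figure D3:**
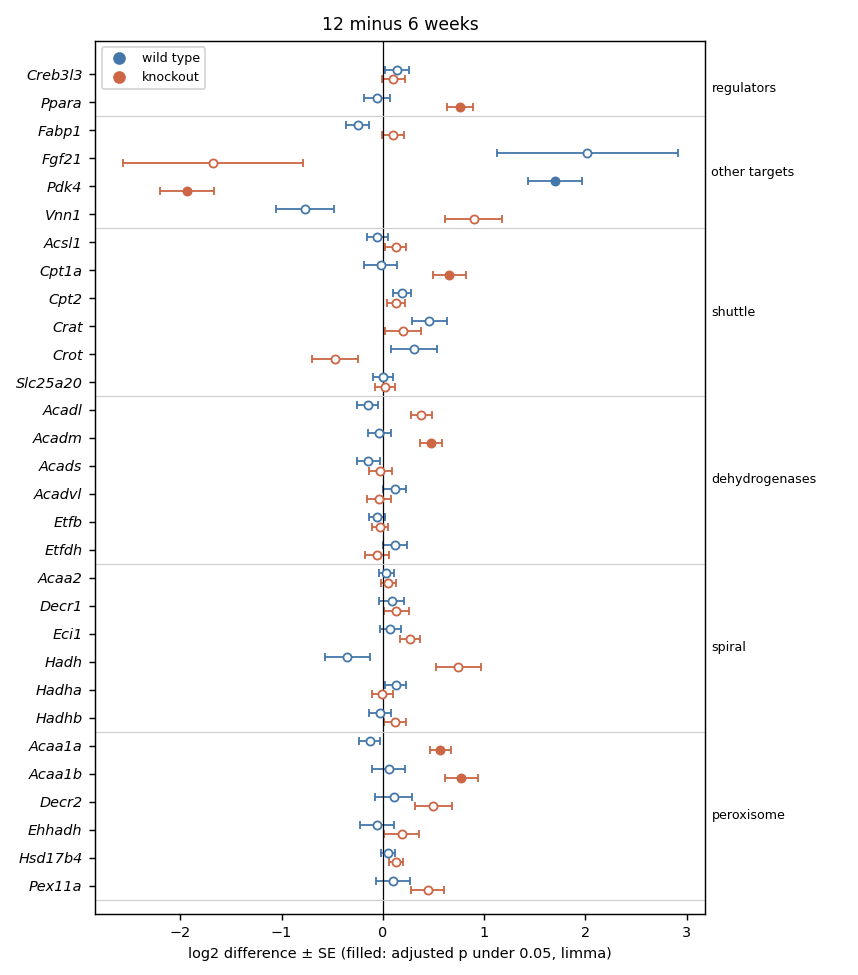
Log2 difference between 12 and 6 weeks, with its SE, for the 30 genes grouped by role, in the wild type and in the knockout; filled points had an adjusted p under 0.05 by limma. In the knockout Ppara, Acaa1a, Acaa1b, Cpt1a and Acadm are filled to the right of 0 and Pdk4 to the left, and in the wild type only Pdk4 is filled, to the right.

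In the knockout, 5 genes rose with age and Pdk4 fell: 6 of 30 or 20%, beside 6.91% of all genes tested (3.98% higher and 2.93% lower). The risers were Ppara, the peroxisomal thiolases Acaa1a and Acaa1b, Cpt1a and Acadm. That was 1 of 6 genes in the shuttle, 1 of 6 in the dehydrogenase group and 2 of 6 in the peroxisome. In the later steps of the spiral 0 of 6 passed (2 at an unadjusted p under 0.05, limma). The median over the 30 genes was 0.13, against -0.02 over all genes, and no test of the list as a whole was made. All these arrays lay on slide 2. The comparison shares its 6-week and 12-week knockout arrays with the genotype comparisons above, so its values are not independent of them.

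Ppara rose from a mean of 5.63 ± 0.23 (SD, n = 3) to 6.39 ± 0.10, with no overlap (0.76 ± 0.13 SE; 1.69-fold; adjusted p = 0.00822, limma), and its other probes gave 0.96 ± 0.15 and 0.75 ± 0.13 (adjusted p = 0.00583 and 0.00989). Acaa1a went from 7.54 ± 0.12 to 8.11 ± 0.02 (0.57 ± 0.10, adjusted p = 0.0111) and Acaa1b from 6.74 ± 0.12 to 7.52 ± 0.24 (0.77 ± 0.16, adjusted p = 0.0217). Both thiolases were thus higher on every 12-week array. Cpt1a went from 5.45 ± 0.34 to 6.11 ± 0.18 (0.66 ± 0.16, adjusted p = 0.0395), while its other probe differed by 0.54 ± 0.16 and did not pass (adjusted p = 0.0771). Acadm was at 7.02, 7.11 and 6.83 in the 12-week knockout, above its 3 arrays of 6 weeks (0.47 ± 0.11, adjusted p = 0.0325). Pdk4 fell by 1.93 ± 0.27 on the log2 scale (3.82-fold, adjusted p = 0.00314).

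The ages did not overlap in the knockout for 19 of the 30 genes, 16 higher and 3 lower, or 63.3% beside 31.9% of all genes. The 3 lower were Pdk4, Fgf21 (-1.68 ± 0.89, adjusted p = 0.316) and Crot (-0.47 ± 0.23, adjusted p = 0.268). Besides the 5 risers, the higher ones were Vnn1, Hadh, Acadl, Decr2, Pex11a, Eci1, Ehhadh, Hsd17b4, Decr1, Cpt2 and Hadhb, none of which passed; among these Vnn1 was at 0.90 ± 0.28 (adjusted p = 0.0911), Hadh at 0.75 ± 0.22 (adjusted p = 0.0776) and Acadl at 0.38 ± 0.10 (adjusted p = 0.056). All 6 peroxisomal genes had a positive difference, from 0.13 (Hsd17b4, the bifunctional enzyme of branched chains) to 0.77 (Acaa1b), as did 22 of all 30 genes. Of the 6, 2 passed, beside 6.91% of all genes tested. These were Acaa1a and Acaa1b, and how far each probe read the other gene is uncertain. The 6 dehydrogenase and electron transfer genes ran from -0.06 (Etfdh) to 0.47 (Acadm).

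Pdk4, Ppara and Acaa1a kept their calls in the knockout under all 25 alternative settings. Acaa1b missed the threshold without replicate 1 or 3 of the 6-week knockout or replicate 2 of the 12-week knockout (0.64 to 0.76, adjusted p = 0.0667 to 0.0833), Acadm without any 1 of 6 arrays (replicate 2 of the 6-week wild type, each 6-week knockout, and replicates 1 and 2 of the 12-week knockout; 0.41 to 0.51, adjusted p = 0.052 to 0.122) and Cpt1a without any 1 of 8 (replicates 2 and 3 of the 6-week and replicate 2 of the 12-week wild type, replicates 1 and 2 of the 6-week knockout, and each 12-week knockout; 0.48 to 0.75, adjusted p = 0.0507 to 0.144). The count fell to 3 of 30 without replicate 1 of the 6-week or replicate 2 of the 12-week knockout (all genes: 3.59% and 2.73%). It was 8 without replicate 1 of the 6-week wild type (5 higher, 3 lower, beside 6.18% of all genes). In slide 2 alone 5 passed (3 higher, 2 lower, beside 5.36%), and Acadm (adjusted p = 0.0608) and Cpt1a (adjusted p = 0.08) did not. A fit of the 2 knockout groups alone gave 6 (4 higher, 2 lower, beside 7.14%). In some settings, then, a gene besides Pdk4 passed as lower.

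The genotype difference itself differed between the ages for 5 of the 30 genes, 16.7% beside 10.3% of all genes tested (5.58% higher and 4.76% lower at 12 than at 6 weeks). For Pdk4 the knockout was 5.12-fold above the wild type at 6 weeks and 2.42-fold below it at 12 weeks, a change of -3.63 ± 0.38 on the log2 scale (adjusted p = 0.000608, limma). Vnn1 changed by 1.67 ± 0.40 (adjusted p = 0.0265), Ppara by 0.82 ± 0.18 (adjusted p = 0.02), Acaa1a by 0.69 ± 0.15 (adjusted p = 0.0149) and Acadl by 0.53 ± 0.15 (adjusted p = 0.0467). In these 4 the knockout lay below the wild type at 6 weeks, and the ranges of the genotypes overlapped at 12 weeks. The other Ppara probes gave 1.05 ± 0.21 and 0.83 ± 0.18 (adjusted p = 0.0137 and 0.0195). The median over the 30 genes was 0.13, against 0.01 over all genes.

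Pdk4 and Acaa1a passed this test of the difference in every one of 23 alternative settings. Ppara missed it without replicate 2 of the 6-week wild type (0.76, adjusted p = 0.0529) or replicate 2 of the 12-week knockout (0.76, adjusted p = 0.0532), and with no filter on dim probes (0.82, adjusted p = 0.0518). Vnn1 missed it in 8 settings, among them with the slide as a fixed block (1.71, adjusted p = 0.0819) and without any 1 of 6 arrays (replicates 2 and 3 of the 6-week wild type, replicate 2 of the 12-week wild type, replicate 2 of the 6-week knockout, and replicates 2 and 3 of the 12-week knockout; 1.47 to 1.72). Acadl missed it in 17 settings, among them every single array left out except replicate 1 of the 6-week and replicate 3 of the 12-week wild type (0.45 to 0.58). The count was 2 without replicate 2 of the 6-week wild type or of the 12-week knockout, 3 without replicate 3 of the 6-week wild type, replicate 2 of the 12-week wild type or replicate 3 of the 12-week knockout, and 8 without replicate 3 of the 12-week wild type.

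**Figure D4:**
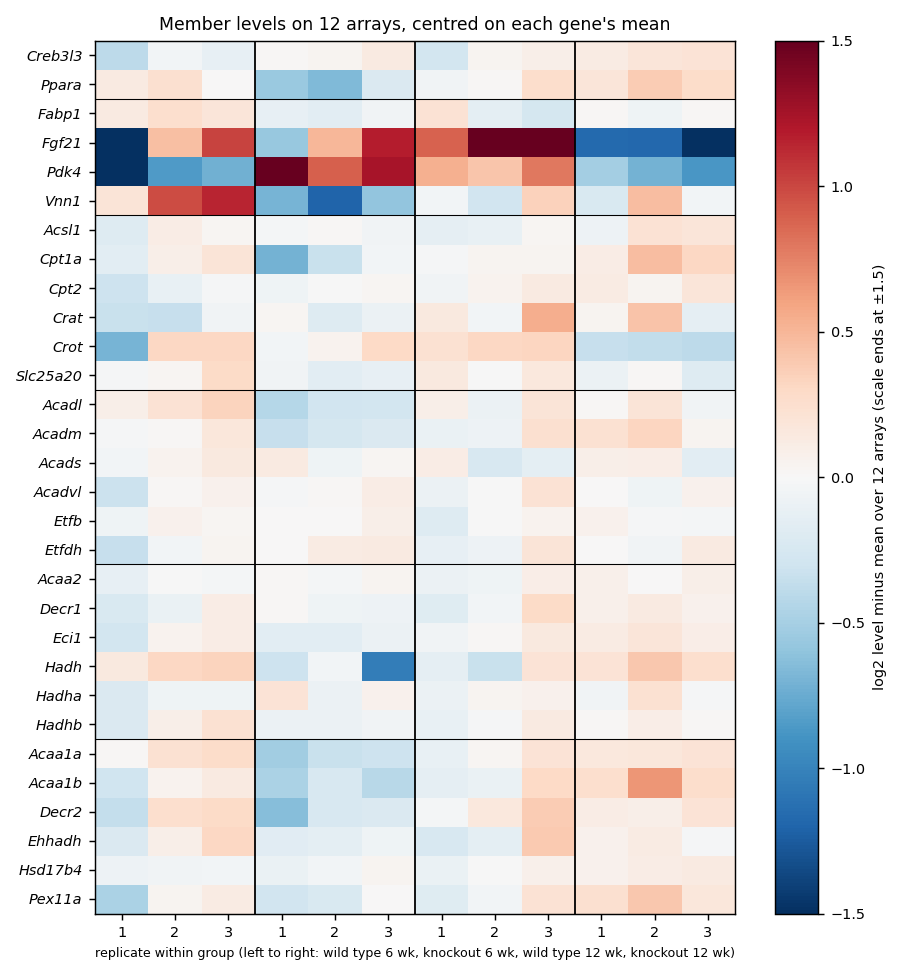
Levels of the 30 genes (rows, grouped by role) on the 12 arrays (columns, by group and replicate), each minus the gene's mean over the 12 arrays; red is above and blue below, with the colour scale ending at ±1.5 on the log2 scale. Pdk4 and Fgf21 span the scale, most oxidation enzymes stay pale, and replicate 1 of the 6-week wild type is blue in most rows.

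Within groups the genes moved with the array. Replicate 1 of the 6-week wild type had the lowest level of its group for 28 of the 30 genes, where it was lowest for 31.3% of all genes. Replicate 3 of that group was highest for 23 (32.5% of all genes). In the 12-week wild type replicate 3 was highest for 27 genes (36.1% of all genes) and replicate 1 lowest for 22 (41.1% of all genes). In the 6-week knockout replicate 3 was highest for 21 (42.1% of all genes) and replicate 1 lowest for 17 (45.9% of all genes). The 12-week knockout differed, with replicate 2 highest for 17 (24.5% of all genes) and replicate 3 lowest for 13 (27.2% of all genes). Without replicate 1 of the 6-week wild type the median of the 30 genes at 6 weeks was -0.23 in place of -0.04. The count stayed at 6, but Hadh (adjusted p = 0.0767) no longer passed and Decr2, the peroxisomal dienoyl-CoA reductase, did (-0.64, adjusted p = 0.026). Ppara was among the exceptions, at 6.25 on that array, between its other readings of 6.12 and 6.35.

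A wider list of 98 further genes of the pathway, of which 96 were tested (Cpt1c and Peci were not), was read from the same fit. This list too was chosen with earlier results of these data known, so its shares are not independent support. No test of the list as a whole was made. At 6 weeks 33 passed (16 higher, 17 lower), 34.4% beside 21.1% of all genes, and at 12 weeks 12 passed (11 higher, 1 lower), 12.5% beside 8.21%. With age 14 passed in the wild type (5 higher, 9 lower), beside 9.04% of all genes, and 10 in the knockout (7 higher, 3 lower), 10.4% beside 6.91%. The genotype difference changed with age for 20 (14 higher, 6 lower), 20.8% beside 10.3%.

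Those with the smallest p included regulators, fuel switches and transporters. Ppard, the sister receptor of PPAR-alpha, was 5.23-fold higher in the knockout at 6 weeks (2.39 ± 0.25, adjusted p = 0.000307) and fell by 2.38 ± 0.25 in the knockout with age, to a mean of 0.41 beside 0.41 and 0.44 in the wild type. Slc16a6, which exports ketone bodies, was also higher in the knockout at 6 weeks (2.19 ± 0.17), rose with age in the wild type (1.32 ± 0.17) and fell with age in the knockout (-1.39 ± 0.17). Abcd2, a peroxisomal importer of very long chains, measured lower in the knockout at 6 weeks (-3.13 ± 0.40). It was well above background on 2 of 3 knockout arrays at each age and entered the test through the wild type groups, so the size of that difference is uncertain. Acox2, the oxidase of branched chains, was higher (0.67 ± 0.09). At 12 weeks the knockout was higher in Pex10 (0.75 ± 0.11), needed to build peroxisomes, in the mitochondrial dehydrogenases Acadsb (0.37 ± 0.07) and Hsd17b10 (0.49 ± 0.09), and in Pdk2 (0.52 ± 0.10), a relative of Pdk4. Pex10 fell with age in the wild type, from a mean of -0.92 to -1.53 (-0.60 ± 0.11, adjusted p = 0.00951, limma). Its knockout means were -0.84 at 6 weeks and -0.78 at 12 weeks. For Cd36, a fatty acid receptor of the cell surface, the genotype difference changed by 2.33 ± 0.38 between the ages (adjusted p = 0.00462), and for Pdk2 by 1.11 ± 0.14.

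Values of 2 genes of the liver clock are given beside these results; they were chosen after their values were seen and do not stand for the clock as a whole. Dbp, a clock output factor, was at a mean of 6.92 ± 0.11 in the 6-week wild type and 0.10 ± 0.18 in the 6-week knockout (-6.82 ± 0.26), and at 5.56 ± 0.65 and 6.80 ± 0.12 at 12 weeks (1.23 ± 0.26, adjusted p = 0.0192). Arntl, which encodes the clock activator BMAL1, went the other way, at -3.02 ± 0.46 and 2.14 ± 0.51 at 6 weeks (5.15 ± 0.38) and at 0.08 ± 0.54 and -1.08 ± 0.54 at 12 weeks (-1.16 ± 0.38, adjusted p = 0.0873), where it did not pass. With age in the wild type, where Pdk4 was the 1 gene of the 30 to pass, Dbp fell by 1.36 ± 0.26 (adjusted p = 0.0112) and Arntl rose from -3.02 to 0.08 (adjusted p = 0.00141). In the knockout Dbp rose by 6.70 ± 0.26 and Arntl fell by 3.21 ± 0.38 with age. The hour of killing is not given, and the part of the clock in the results for Pdk4, Ppara and the other genes was not tested.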

How the data were processed

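Per the labels' protocols, total RNA of whole livers was copied into cyanine 3-labelled cRNA and hybridised to 1-colour mouse arrays. Spot intensity was extracted by the authors in Agilent Feature Extraction 10.7.3.1, per the file headers, as a background-subtracted and detrended value, not scaled between arrays, with low values replaced by a surrogate (19.3% to 30.9% of spots). The deposited value table held the same linear intensity, rounded, within 0.497%, neither centred nor a ratio, and its column medians ran from 21.6 to 29.5. Probe positions are on mm9, per the file headers, and were not annotated to exons.

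Control and outlier spots were left out, spots of a probe were averaged, and log2 intensity was taken relative to each array's 75th percentile (349 to 420). Tested probes stood well above background on every array of some group (29806 probes, 53.5%), and the brightest probe stood for a gene. Symbols were updated through a RefSeq table for 26582 probes by accession and 492 by synonym. The 4 group means were fitted over 12 arrays with limma 3.58.1 in R 4.3.3 (8 residual and 2.23 prior degrees of freedom), adjusted by Benjamini-Hochberg over 22130 genes. The fit was also run on simulated data, which held no slide effect, so that run says nothing of the slides. No spot was saturated, between 50.1% and 57.7% of spots were well above background, and the number of arrays limits the precision. Arrays of a group correlated at 0.987 to 0.996 across genes. The sources used here say nothing of litters or pooling, so p-values measure the spread between these arrays.

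The genes and lists were chosen with earlier results of these data known. Per-array values are given for Ppara and for the 8 genes with the widest difference among those past the threshold, and of the wider list up to 4 genes per comparison with the smallest p; Fgf21, Crot, Dbp, Arntl and further per-array values were added after the values were seen. Alternatives were other backgrounds, scalings, filters and probe rules, the slide and the replicate number as blocks, slide 2 alone, 2 groups in the fit, and each array left out.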

Additional observations from a re-analysis of the deposited data

Results flagged for a closer look

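For 5 of the 30 genes the knockout's difference from the wild type was not the same at 12 as at 6 weeks, by limma's test of the difference itself. On the log2 scale the shift from 6 to 12 weeks was -3.63 for Pdk4, 1.67 for Vnn1, 0.82 for Ppara, 0.69 for Acaa1a and 0.53 for Acadl. Pdk4 turned from higher to lower in the knockout, with both differences past the threshold. The other 4 were lower in the knockout at 6 weeks and did not pass at 12 weeks. The 6-week part of each value sets slide 1 against slide 2.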

How the results depend on the processing

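The 19 calls of single genes gave 458 values under the alternatives: 383 kept the call, 75 lost it and none changed direction. The count of the 30 genes past the threshold moved by over 1.5 times as follows. With the slide as a fixed block it was 1 at 6 weeks in place of 6 (all genes: 2.66% in place of 21.1%), 0 in place of 1 for the wild type with age (2 at an unadjusted p under 0.05, limma; all genes: 3.29% in place of 9.04%) and 3 in place of 5 for the change of the genotype difference (6.93% in place of 10.3%). With normexp background correction it was 2 in place of 1 at 12 weeks (all genes: 11% in place of 8.21%) and 8 in place of 5 for the change of the difference (12.4%). Without a filter on dim probes, where 36095 genes share the adjustment, it was 3 in place of 6 for the knockout with age (all genes: 2.02% in place of 6.91%) and 2 in place of 5 for the change of the difference (3.72%). At 12 weeks slide 2 alone gave 3 (all genes: 3.36%), and so did a fit of the 2 groups alone (1.84%). Leaving out each array in turn gave 5 to 8 at 6 weeks, 0 to 3 at 12 weeks, 1 to 2 in the wild type with age, 3 to 8 in the knockout with age and 2 to 8 for the change of the difference. Beyond what these settings change by construction (fewer arrays, more genes tested), the cause was not tested.

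Arrays with the same replicate number did not deviate together (correlations of -0.09 to 0.18, against -0.20 to 0.19 for other pairs), so the numbers pair nothing. With the replicate block the counts were 7, 1, 1, 5 and 5 in the same order.

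The number of arrays, 3 a group, limits the precision, and Fgf21 and Abcd2 were not well above background on every array.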
